A study of Mus musculus with 12 samples.

Results

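The genes of the cytosolic ribosomal proteins were followed in mouse liver under endoplasmic reticulum (ER) stress, in the presence and absence of Ire1α. Members were taken by symbol: a probe set belonged if the platform annotation gave it exactly 1 symbol, made of Rpl or Rps and a number, or Rplp0, Rplp1, Rplp2 or Rpsa, with pseudogenes ("-ps") and the Rps6k kinases left out. The rule found 50 of the 18193 genes with a single symbol, read by 106 probe sets, and each gene was read from the probe set whose mean over the 12 arrays was highest. Once the dimmest 30% of probe sets were removed, 47 of the 50 were among the 14569 genes tested, 24 with an Rpl symbol and 23 with an Rps symbol. The other 3, Rpl39, Rpl39l and Rps16, had mean log2 signals of 4.84, 4.58 and 4.36 and were not tested. Brighter probe sets list Rpl39 (mean 13.30) and Rps16 (means 12.97 and 13.21) beside other symbols. The dim values of these genes are therefore not read as low mRNA levels. By symbol the rule also took Rps19bp1, which encodes a protein that binds Rps19 and is not a subunit of the ribosome. Many ribosomal proteins were absent from the members because their probe sets also list pseudogenes or other genes: 110 further probe sets listed several symbols, 1 or more of them fitting the rule, and these were not assigned to a gene. Some members, among them Rpl13a, Rpl41, Rps2 and Rps9, were themselves read from probe sets with an _x_at or _s_at suffix. Whether a single-symbol probe set also matches other transcripts was not tested.

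The 12 Affymetrix arrays held 3 biological replicates in each of 4 groups of C57Bl/6J mice aged 3 months. Control mice are titled Fe+CRE+ and conditional Ire1α null mice Fe-CRE+, so that every mouse, controls included, is labelled CRE+. Mice of each genotype received 1 intraperitoneal injection, either of tunicamycin (Tm) at 2 µg per gram of body weight or of a 150 µM dextrose vehicle, and whole liver was taken after 8 h. Tunicamycin blocks N-linked glycosylation and leaves unfolded protein in the ER. Ire1α, the product of Ern1, is a stress sensor of the ER membrane with kinase and RNase activity. The sources used here do not name the promoter that drives Cre or the deleted part of Ern1.

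The ribosomal proteins and the ribosomal RNAs form the small subunit, which decodes the messenger RNA, and the large subunit, which joins amino acids into protein. In liver, which exports most plasma proteins, their mRNAs are among the most abundant. Most of these mRNAs begin with a terminal oligopyrimidine (TOP) tract, a cytosine followed by a run of C and T at the start of the transcript, through which their translation follows the growth kinase complex mTORC1. Control of this kind changes how often an mRNA is read and need not change its level, and arrays measure level only.

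Trimmed mean intensities lay between 228 and 303 per array, and arrays of one group correlated at 0.949 to 0.986 over probe sets. In control livers the trimmed means were 234 to 261 with vehicle and 277 to 297 with tunicamycin. In null livers they were 228 to 255 and 240 to 303, with overlap. Hepatocyte markers (5 of 6 measured) were strong on every array, with sums from 59588 to 69248. Replicate 2 of the null tunicamycin group had a summed kidney marker signal of 28472 (11 of 12 markers measured) against 334 to 642 on the other 11 arrays, and the main results of null livers are given with and without that array. The 5 Ern1 probe sets differed between genotypes by -0.24 to 0.00 with vehicle and by -0.37 to 0.10 with tunicamycin on the log2 scale (smallest limma adjusted p = 0.678). These values do not check the genotype labels, since the position of the deletion relative to the probes was not known here.

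Tunicamycin left most ribosomal protein mRNAs close to their vehicle level in control livers. Of 47 members, 2 rose (4.26%) and 0 fell, whereas 25% of all genes tested were called, 11.6% higher and 13.3% lower (limma, Benjamini-Hochberg adjusted p under 0.05 over all genes tested). That split depended on the scaling: 14.4% were higher and 8.11% lower with array medians centred, and 14.2% and 7.33% with the values as deposited. The risers were Rpl12, at the base of the stalk of the large subunit, and Rpsa, a small subunit protein also known as the laminin receptor. The count depended on how the fit shares spread between genes. With the trend and robust options, which let the shared spread follow the signal, Rpl13a, Rpl4, Rps28 and Rps6 were also called. The share of all genes called was at most 32% under any alternative. The members' median log2 change was 0.11 and their range -0.26 to 1.88, beside a median of -0.11 over all genes. By direction, 41 of 47 members (87.2%) had a change above 0, against 40.6% of all genes. Summed hepatocyte markers lay between 59588 and 64877 with vehicle and 65238 and 69248 with tunicamycin in control livers, and between 63458 and 64612 and between 64880 and 69027 in null livers, as deposited. Deposited sums are not scaled between arrays, and the trimmed means of control livers also separated by treatment. Summed erythroid markers (3 of 5 measured) lay lower with tunicamycin, at 682 to 909 against 388 to 590 in control and 857 to 1043 against 339 to 757 in null livers. In control livers kidney markers (428 to 567 against 334 to 407) and bile duct markers (4 of 4 measured, 120 to 146 against 86.2 to 112) were also lower on every tunicamycin array, and in null livers neutrophil markers (4 of 5 measured) were higher, at 77.9 to 90.7 against 99.6 to 183. In control livers the neutrophil sums overlapped, at 103 to 312 against 76.3 to 296. Only 2 neutrophil markers passed the filter on dim probe sets, and 0 neutrophil or bile duct markers were called in either genotype. Summed Kupffer cell and macrophage markers overlapped between treatments, with 1 of 7 called in each genotype. The part of these cell types in the members' values was not tested. In whole liver, fewer cells of a type and less RNA per cell cannot be told apart, and a change in all mRNAs at once is removed by normalization.

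In null livers the count was 4 of 47 members higher (8.51%) and 0 lower, beside 16.8% of all genes called, 7.6% higher and 9.19% lower (8.59% and 4.83% with array medians centred, 10.1% and 3.51% as deposited). Rpl12 and Rpsa rose again, together with Rps9, a small subunit protein near the mRNA entry site, and Rpl22l1, the paralog of Rpl22. With the trend and robust options Rpl10a, Rpl13a, Rpl4, Rplp2, Rps15, Rps19 and Rps7 were also called. That made 11 of 47 members. The share of all genes called was at most 22.1% under any alternative, so with these options members were not called less often than all genes. The members' median change was 0.24, with a range of -0.43 to 1.68, against -0.07 over all genes. A change above 0 was found in 43 of 47 members (91.5%) and in 43.2% of all genes. Without the array that carried kidney markers, 2 members were called, Rpl12 and Rps4l, beside 15% of all genes, and the median was 0.22. The same array enters the estimate of spread for control livers, where 5 members were called without it (Rpl12, Rpsa, Rps6, Rps19bp1 and Rps25) beside 27.9% of all genes.

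**Figure D1:**
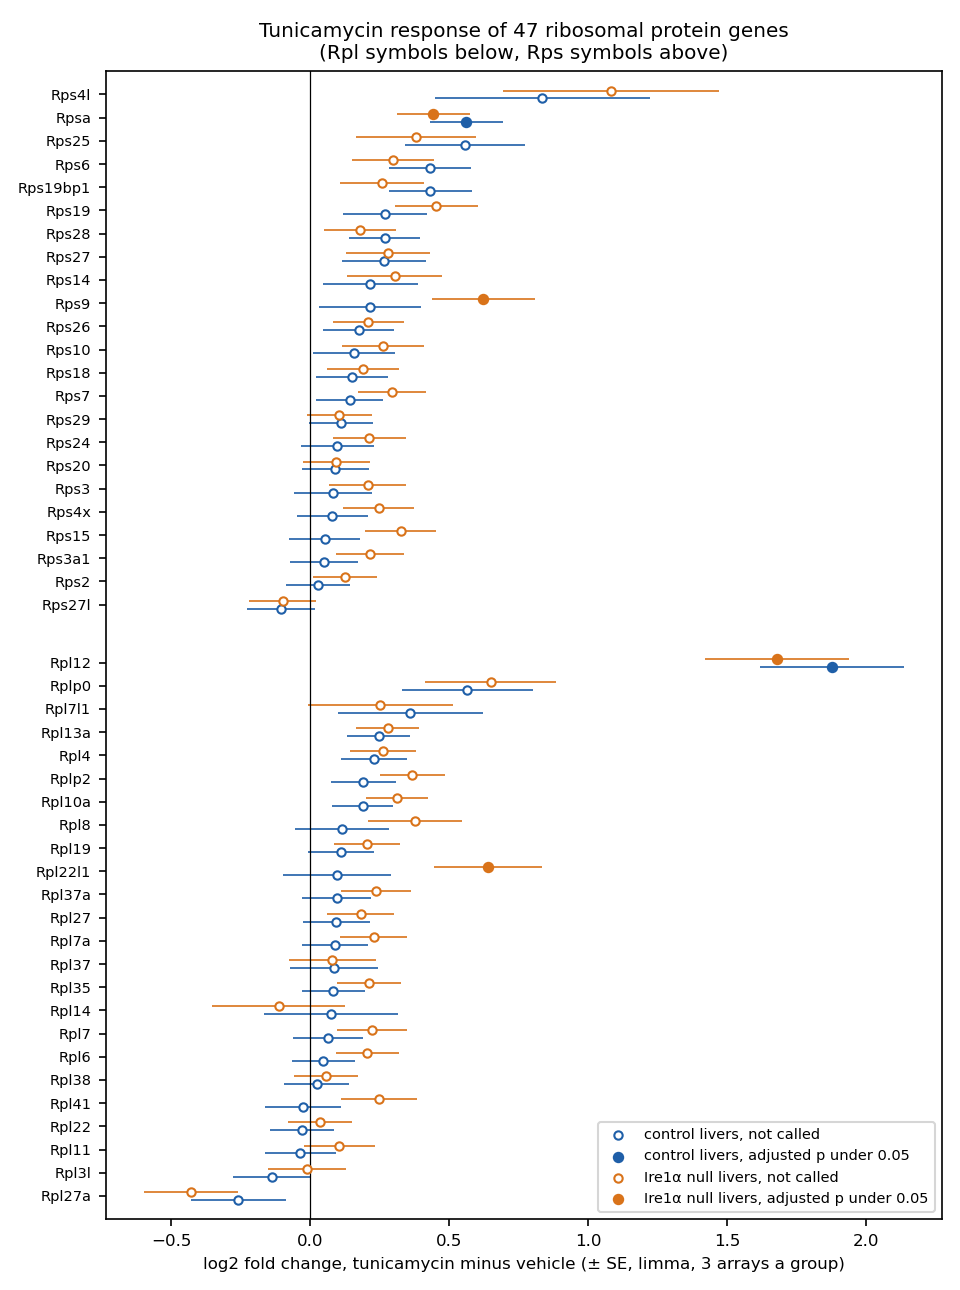
The horizontal axis gives the log2 fold change of tunicamycin minus vehicle, with its standard error, for each of the 47 tested members in control livers (blue) and Ire1α null livers (orange), 3 arrays a group. Filled points passed the adjusted p threshold: 2 in control and 4 in null livers. Rpl12 stands at 1.88 and 1.68, and most other members lie a little to the right of 0.

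Small changes of one sign were common among the members even where no call was made. In control livers all 3 tunicamycin arrays lay above all 3 vehicle arrays for 20 of 47 members (42.6%), against 18% of all genes, and below them for 1, Rps27l (2.13%), against 24.5%. In null livers the tunicamycin arrays lay above for 27 members (57.4%), against 13.6% of all genes, and below for 1, Rpl27a (2.13%), against 19.4%. Without the array with kidney markers, these were 34 members (72.3%) against 18.5% of all genes, and again Rpl27a against 28.8%. The median of the 47 members on each array lay between 12.39 and 12.60 on the 6 vehicle arrays and between 12.63 and 12.74 on the 6 tunicamycin arrays, so that these sets did not overlap. They did not overlap either with the values as deposited (12.23 to 12.60 against 12.66 to 12.85) or with array medians centred (12.26 to 12.58 against 12.67 to 12.78). The deposited values also carry array brightness: trimmed means in control livers were 234 to 261 with vehicle and 277 to 297 with tunicamycin. The share of brightness in the separation as deposited was not tested. With centring, the median of all genes in control livers moved from -0.11 to -0.01, and that of the members from 0.11 to 0.25.

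The 95% interval of the limma fit lay within a 1.5-fold change in either direction for 33 of 47 members in control livers (70.2%), against 25.4% of all genes, and for 30 in null livers (63.8%), against 29.3%. Within a 2-fold change lay the intervals of 43 and 42 members (91.5% and 89.4%), against 68.2% and 74.2% of all genes. The members' intervals were also narrower, since the median residual standard deviation between replicates was 0.105 for members and 0.247 for all genes.

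The ratio of the actin control probe sets at the 5′ and 3′ ends, which falls with RNA degradation, moved with the treatment in control livers. It lay between 0.454 and 1.10 on vehicle and between 0.295 and 0.389 on tunicamycin arrays. In null livers it lay between 0.296 and 0.633 and between 0.205 and 0.434, with overlap. With this ratio as a covariate, 1 member was called in control and 1 in null livers, Rpl12 each time, the members' medians were 0.04 and 0.21, and 13% and 11.3% of all genes were called. Because the ratio separated by treatment in control livers, effects of treatment and of RNA quality cannot be told apart there by this fit. The Gapdh ratio overlapped between treatments (0.352 to 0.774 against 0.523 to 0.577 in control livers, and 0.181 to 0.642 against 0.370 to 0.435 in null livers), and null vehicle replicate 1 was the lowest array. With Gapdh as the covariate 5 and 3 members were called, beside 25.9% and 15.7% of all genes, and the medians were 0.10 and 0.20.

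Most members gave very strong signals: 37 of 47 belonged to the brightest 5% of genes tested. Signal is a property of a probe set and is not compared here between genes as an mRNA level. The highest deposited intensity of any member was 14176, where the array maxima reached at least 14691 on every array and 18741 on the highest. Of the 33 members with a mean log2 signal above 12, 1 (3.03%) was called in control and 2 (6.06%) in null livers. Among the 471 other genes above the same signal, 30.1% and 18.9% were called, with a median residual standard deviation of 0.118 against 0.0878 for those members.

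Rpl12 changed most of all members. Its log2 signals were 7.05, 7.13 and 6.51 on control vehicle arrays and 8.61, 8.65 and 9.05 with tunicamycin. In null livers they were 7.50, 6.60 and 6.89 with vehicle and 8.94, 8.30 and 8.79 with tunicamycin. Every tunicamycin array lay above every vehicle array of both genotypes. The rise was 1.88 ± 0.26 in control livers (3.67-fold, adjusted p = 0.000256) and 1.68 ± 0.26 in null livers (3.20-fold, adjusted p = 0.00108). Without the array with kidney markers the null value was 1.87 ± 0.27 (adjusted p = 0.00088).

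These values come from the only probe set of Rpl12 with a single symbol, whose mean log2 signal was 7.84. A pair of brighter probe sets list Rpl12 beside predicted genes and pseudogenes, with mean log2 signals of 11.86 and 12.64. The first changed by 0.52 ± 0.18 in control livers (adjusted p = 0.0805) and rose by 0.81 ± 0.18 in null livers (adjusted p = 0.0158). The second rose by 0.53 ± 0.13 (adjusted p = 0.0197) and by 0.50 ± 0.13 (adjusted p = 0.041). For these brighter probe sets p was adjusted over all 45037 probe sets, dim ones included, and not over the genes tested. The direction was thus shared, and the change of the dimmer, single-symbol probe set was the larger in both genotypes.

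Rpsa had log2 signals of 12.20, 12.40 and 12.41 on control vehicle arrays and 12.77, 12.97 and 12.95 with tunicamycin. In null livers it gave 12.53, 12.57 and 12.36 with vehicle and 12.87, 12.85 and 13.06 with tunicamycin. No vehicle array reached a tunicamycin array in either genotype. Rpsa rose by 0.56 ± 0.13 in control livers (1.47-fold, adjusted p = 0.00819) and by 0.44 ± 0.13 in null livers (1.36-fold, adjusted p = 0.0391). When the actin ratio was a covariate, the control value was 0.54 (adjusted p = 0.0823). Without the array with kidney markers the null value was 0.48 (adjusted p = 0.0512).

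Rps9 passed the threshold in null livers and missed it in control livers, and the test of the difference between them was not passed. Its log2 signals were 11.43, 12.13 and 11.80 on null vehicle arrays and 12.26, 12.37 and 12.59 with tunicamycin, a rise of 0.62 ± 0.18 (1.54-fold, adjusted p = 0.0389). In control livers they were 12.21, 11.85 and 12.23 and then 12.31, 12.36 and 12.25, a difference of 0.21 ± 0.18 (adjusted p = 0.441). The treatment groups did not overlap in either genotype, and in the null vehicle group replicate 1 lay lowest. The genotype by tunicamycin interaction was 0.41 ± 0.26 (adjusted p = 0.787).

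Rpl22l1 encodes a paralog that can take the place of Rpl22 in the large subunit. Its log2 signals were 11.24, 11.47 and 11.81 in null vehicle livers and 11.89, 12.40 and 12.14 with tunicamycin, a rise of 0.64 ± 0.19 (1.56-fold, adjusted p = 0.0433). Control livers gave 12.21, 11.75 and 11.75 with vehicle and 12.11, 12.01 and 11.87 with tunicamycin, which overlapped (0.09 ± 0.19, adjusted p = 0.768). Its interaction, 0.54 ± 0.28, had the smallest p of any member in that comparison, with an adjusted p of 0.675. Without the array with kidney markers the values of Rps9 and Rpl22l1 in null livers were 0.64 (adjusted p = 0.0634) and 0.51 (adjusted p = 0.122). Null vehicle replicate 1, the lowest array for both genes and for the Gapdh ratio, also bore on them: without it they were 0.44 (adjusted p = 0.142) and 0.50 (adjusted p = 0.154). In the fit that included the Gapdh ratio they were 0.51 (adjusted p = 0.0262) and 0.58 (adjusted p = 0.0656).

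The start-site windows of the 4 called genes are shown because a TOP tract is the sequence feature that most ribosomal protein genes share. Each window runs from 10 bases before to 20 bases after the annotated start in RefSeq (GRCm38.p6), with the longest unbroken run of C and T in capitals, and Rps6, Rplp2, Rps10 and Rpl35 are set beside them as members that were not called. The positions are chr2:32961702-32961731 (plus strand) for Rpl12, chr9:120127756-120127785 (plus) for Rpsa, chr7:3704031-3704060 (plus) for Rps9 and chr3:28805498-28805527 (plus) for Rpl22l1. Those of the others are chr4:86857348-86857377 (minus) for Rps6, chr7:141447641-141447670 (plus) for Rplp2, chr17:27635225-27635254 (minus) for Rps10 and chr2:39005112-39005141 (minus) for Rpl35.
Rpl12: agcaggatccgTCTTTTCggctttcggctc
Rpsa: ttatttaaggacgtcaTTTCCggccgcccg
Rps9: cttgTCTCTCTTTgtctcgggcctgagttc
Rpl22l1: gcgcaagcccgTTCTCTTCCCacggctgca
Rps6: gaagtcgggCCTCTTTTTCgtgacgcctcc
Rplp2: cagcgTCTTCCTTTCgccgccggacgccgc
Rps10: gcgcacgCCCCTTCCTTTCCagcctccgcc
Rpl35: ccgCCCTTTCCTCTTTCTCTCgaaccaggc

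The runs of the called genes were 7 bases in Rpl12, 5 in Rpsa, 9 in Rps9 and 10 in Rpl22l1. Among the 45 windows of tested members that were not called, runs went from 2 to 20 bases with a median of 6, so that the 4 uncalled genes printed here, at 10 to 18 bases, have longer runs than most. A promoter window was found for 44 of the 50 members, 52 windows in all. In the 30 bases around the start, 17 of these 52 windows (32.692%) held an unbroken run of C and T of at least 8 bases, against 11.242% of 32851 windows of all genes. Over the whole 300-base windows, 250 before and 50 after the start, both strands were searched for 3 motifs. The letters CGGAAG, the core bound by ETS factors, were present in 61.538% of member windows and 16.855% of all. The core bound by YY1, searched as AANATGG, was present in 30.769% of member windows and 16.076% of all. The TATA box, searched as TATAAA, was present in 11.538% and 13.616%. Overlaps between motifs were allowed. These are letters in a window around an annotated start, and a match is neither a binding site nor a measured start of transcription.

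Among the stalk proteins, which recruit and activate translation factors on the large subunit, 3 of 4 were tested and Rpl12 was the called one in each genotype. Rplp0, the stalk protein that anchors the others, had log2 signals of 12.55, 11.97 and 12.44 with vehicle and 12.83, 12.96 and 12.86 with tunicamycin in control livers. In null livers they were 11.37, 12.32 and 12.16 and then 12.39, 12.69 and 12.71. The groups did not overlap in either genotype, but the vehicle arrays were spread over a wider range than the gap between the groups. The changes were 0.56 ± 0.24 (adjusted p = 0.104) and 0.65 ± 0.24 (adjusted p = 0.083).

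Rplp2, an acidic stalk protein, had log2 signals of 12.79, 12.63 and 12.79 and then 12.95, 12.98 and 12.85 in control livers. In null livers it gave 12.60, 12.62 and 12.60 with vehicle and 12.90, 12.95 and 13.07 with tunicamycin. Both genotypes separated by treatment. The changes were 0.19 ± 0.12 (adjusted p = 0.272) and 0.37 ± 0.12 (adjusted p = 0.0525), the latter just outside the threshold. The median changes of the 3 stalk genes were 0.56 and 0.65.

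**Figure D2:**
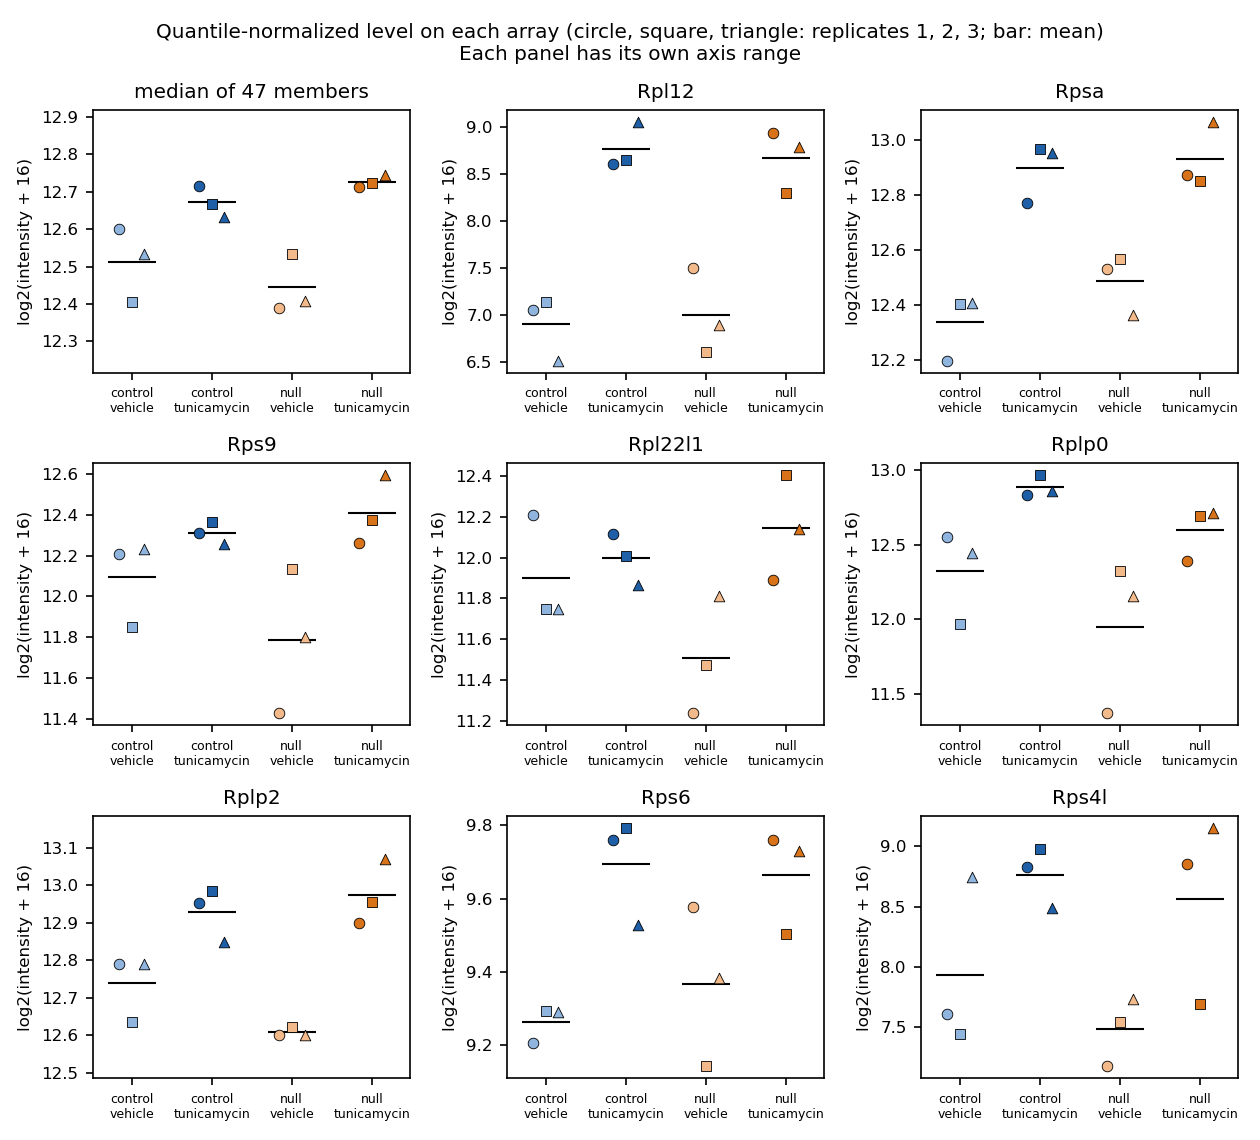
Each panel gives the quantile-normalized log2(intensity + 16) on the 12 arrays by group, with symbols for replicates 1, 2 and 3 and a bar for the group mean, and each panel has its own vertical range. The first panel is the median of the 47 members, 12.39 to 12.60 on vehicle and 12.63 to 12.74 on tunicamycin arrays. The other panels are Rpl12, Rpsa, Rps9, Rpl22l1, Rplp0, Rplp2, Rps6 and Rps4l.

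Among members with an Rps symbol, those closest to the threshold in control livers were Rps6, Rps19bp1 and Rps25. Rps6 is the ribosomal protein that S6 kinases phosphorylate. Its log2 signals were 9.20, 9.29 and 9.29 with vehicle and 9.76, 9.79 and 9.53 with tunicamycin, without overlap (0.43 ± 0.15, adjusted p = 0.0505). Null livers gave 9.58, 9.14 and 9.38 and then 9.76, 9.50 and 9.73, with overlap (0.30 ± 0.15, adjusted p = 0.202). The overlap came through tunicamycin replicate 2, the array with kidney markers. Without that array the null value was 0.38 ± 0.16 (adjusted p = 0.141). The other single-symbol probe set of Rps6, with a mean log2 signal of 5.31, changed by -0.57 and -0.35, neither called. The sign for Rps6 thus depended on the probe set. The brightest probe set that lists Rps6 beside a pseudogene, with a mean of 13.26, changed by 0.07 and 0.14. Further ones of that kind went either way, and none was called.

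Rps19bp1 gave 9.10, 8.78 and 8.75 with vehicle and 9.36, 9.30 and 9.27 with tunicamycin in control livers. The groups did not overlap, with a change of 0.43 ± 0.15 (adjusted p = 0.0552), and in null livers the change was 0.26 ± 0.15 (adjusted p = 0.283). Rps25, which is needed for initiation at some internal ribosome entry sites, had signals of 6.57, 7.16 and 6.95 and then 7.19, 7.50 and 7.66 in control livers. Its changes were 0.56 ± 0.22 (adjusted p = 0.083) and 0.38 ± 0.22 (adjusted p = 0.271). A brighter probe set that lists Rps25 beside predicted genes, with a mean log2 signal of 12.56, changed by 0.03 and 0.09, neither called. Without the array with kidney markers, the null values of Rps19bp1 and Rps25 were 0.37 (adjusted p = 0.14) and 0.59 (adjusted p = 0.0812).

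Of the 22 tested members with an Rps symbol other than Rps19bp1, 1 was called in control livers and 2 in null livers. Their median changes were 0.15 and 0.25, and 21 of 22 changes were above 0 in each genotype. Of the 24 with an Rpl symbol 1 and 2 were called, with medians of 0.09 and 0.22, and 19 and 21 changes were above 0. The difference between these sets was not tested.

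Of the proteins at the rim of the exit tunnel, where the nascent chain leaves the ribosome and the signal recognition particle and the ER translocon dock, 3 of 8 were members and tested. Rpl35 had signals of 12.60, 12.58 and 12.56 with vehicle and 12.71, 12.64 and 12.63 with tunicamycin in control livers, and 12.68, 12.46 and 12.61 against 12.77, 12.80 and 12.81 in null livers. The groups were separate in both genotypes, yet the changes were 0.08 ± 0.11 and 0.21 ± 0.11 (adjusted p = 0.647 and 0.249). Rpl19 changed by 0.11 ± 0.12 and 0.20 ± 0.12, and Rpl22 by -0.03 ± 0.11 and 0.03 ± 0.11, with none called.

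Rps2, Rps3, Rps10 and Rps20, which are ubiquitylated when ribosomes stall or collide and during the unfolded protein response, were all tested and none was called. Their changes ranged from 0.03 to 0.16 in control and from 0.09 to 0.26 in null livers. Of the 5S particle, Rpl5 and Rpl11, which can bind Mdm2 and stabilise p53 when ribosome assembly fails, only Rpl11 was a member. It had signals of 12.37, 12.12 and 12.27 and then 12.16, 12.22 and 12.26 in control livers, which overlapped, and changed by -0.04 ± 0.13 and 0.10 ± 0.13.

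Among paralogs, 5 of 8 were tested. Rpl22l1 rose in null livers by the value given above, while Rpl22 gave 13.03, 13.01 and 12.95 with vehicle and 13.07, 12.90 and 12.92 with tunicamycin in control livers, and 13.04, 12.92 and 12.97 against 13.00, 13.04 and 12.99 in null livers. Rps4l had signals of 7.61, 7.44 and 8.74 with vehicle and 8.83, 8.98 and 8.49 with tunicamycin in control livers. In null livers it gave 7.18, 7.55 and 7.74 and then 8.86, 7.69 and 9.15. Groups overlapped in both genotypes, through vehicle replicate 3 in control livers and through tunicamycin replicate 2, the array with kidney markers, in null livers.

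The changes of Rps4l were 0.83 ± 0.39 (adjusted p = 0.141) and 1.08 ± 0.39 (adjusted p = 0.0801), and without the array with kidney markers the null value was 1.52 ± 0.33 (adjusted p = 0.0108). Rps4x, its canonical partner, changed by 0.08 ± 0.13 and 0.25 ± 0.13. Rps27l, a paralog of Rps27 known as a p53 target, was the one member whose tunicamycin arrays all lay below the vehicle arrays in control livers. Its signals were 12.85, 12.84 and 12.86 against 12.80, 12.68 and 12.75, a change of -0.11 ± 0.12 (adjusted p = 0.578). Its null values were 12.86, 12.71 and 12.78 against 12.81, 12.54 and 12.71 (-0.10 ± 0.12), with overlap. Rps27 itself changed by 0.26 ± 0.15 and 0.28 ± 0.15.

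Rpl7l1 changed by 0.36 ± 0.26 and 0.25 ± 0.26, and Rpl7 by 0.06 ± 0.13 and 0.22 ± 0.13. Rpl3l, a form known from striated muscle, had signals between 4.76 and 5.34 on all 12 arrays and changes of -0.14 ± 0.14 and -0.01 ± 0.14. At the other end of the range of changes, Rpl27a gave 8.23, 8.12 and 8.12 with vehicle and 7.70, 7.67 and 7.81 with tunicamycin in null livers. Its groups were separate, with a change of -0.43 ± 0.17 that was not called (adjusted p = 0.109). This probe set had a mean log2 signal of 7.82. A brighter one that lists Rpl27a beside predicted genes, with a mean of 12.97, changed by 0.20 in control and 0.16 in null livers. Neither change was called, so the sign for Rpl27a depended on the probe set.

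Several members had more than 1 probe set, and their dim probe sets sometimes gave larger changes than their bright ones. When all 106 probe sets were tested on their own, 4 were called in control livers (3.77%), all higher, where 7.66% of 34945 probe sets with a single symbol were called higher and 7.02% lower. In null livers 7 were called (6.6%), all higher, where 4.23% were higher and 4.38% lower. Of the probe sets behind the null calls of the main fit, that of Rpl12 was called again. Those of Rps9, Rpsa and Rpl22l1 were not (limma adjusted p = 0.0628, 0.0677 and 0.0683). Without the array with kidney markers 6 and 8 were called, all higher (5.66% and 7.55%), where 8.42% and 4.12% of all probe sets were higher and 8.05% and 3.42% lower. For Rpl41, a very short basic peptide of the large subunit, the brightest probe set changed by -0.03 and 0.25 at a mean log2 signal of 13.03. Another Rpl41 probe set, with a mean of 6.78, gave 5.67, 6.19 and 6.09 with vehicle and 7.06, 7.28 and 7.43 with tunicamycin in control livers. That is a rise of 1.27 (adjusted p = 0.0062), and the rise in null livers was 1.38 (adjusted p = 0.00679).

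Rpl13a, known for the complex that silences inflammatory transcripts when it leaves the ribosome, gave a further case. Its 4 probe sets, from bright to dim, had mean signals of 13.39, 13.08, 12.40 and 10.26. Their changes in control livers were 0.25, 0.22, 0.49 and 0.80, of which the last was called (adjusted p = 0.00505). In null livers they were 0.28, 0.17, 0.61 and 0.75, of which again the last was called (adjusted p = 0.0134).

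For Rps9, the probe set with a mean of 7.53 rose by 0.76 in null livers (adjusted p = 0.03), and the third, with a mean of 11.48, changed by 0.25 (adjusted p = 0.452). Over the probe sets as a whole, medians in control livers were 0.17 for the 12 with a mean log2 signal under 6, 0.39 for the 16 from 6 to 8, 0.16 for the 18 from 8 to 12 and 0.10 for the 60 above 12. In null livers these medians were 0.04, 0.33, 0.33 and 0.21, so that the change did not follow the signal over its whole range. Probe sets of one gene can match different ends or forms of a transcript, and which they matched was not tested here. The 110 probe sets with several symbols gave 4 calls in control and 4 in null livers, all higher, with medians of 0.10 and 0.19, where 12.1% and 7.07% of all 45037 probe sets were called.

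**Figure D3:**
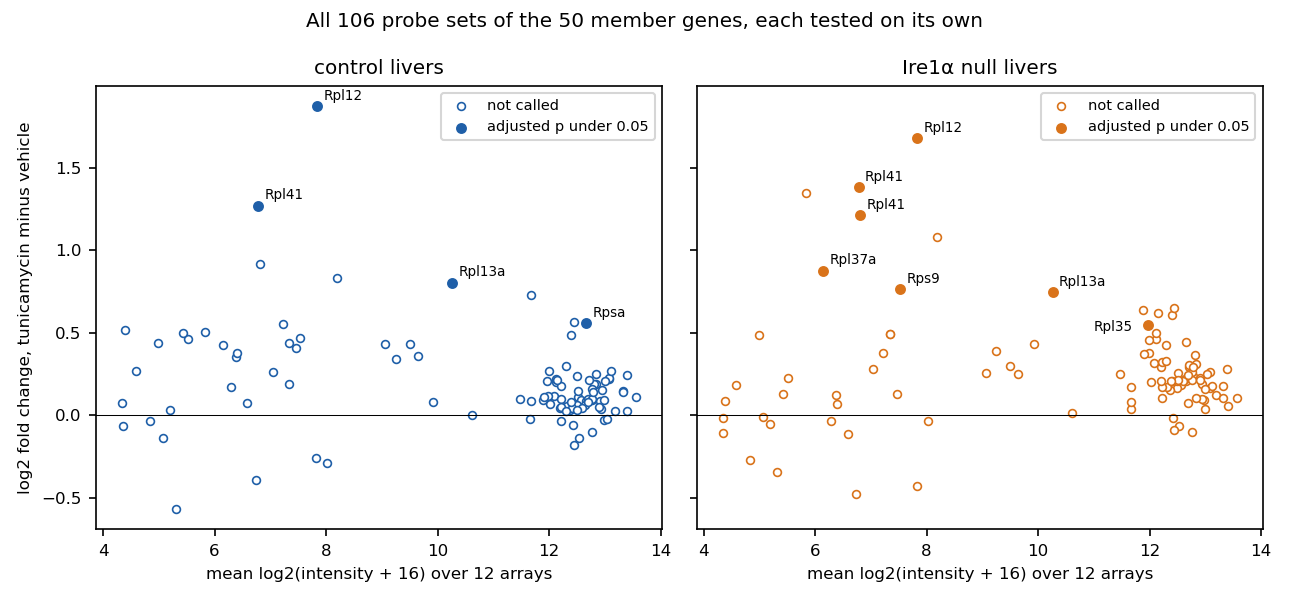
Each point is 1 of the 106 probe sets of the 50 member genes, by its mean log2(intensity + 16) over the 12 arrays and its log2 fold change with tunicamycin in control (left) and null livers (right). Filled points passed the adjusted p threshold when every probe set was tested on its own, 4 and 7 of 106, and carry the gene symbol. Probe sets above a signal of 12 lie in a narrow band near 0, and those between 6 and 8 are spread wider and mostly above 0.

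Genotype alone gave no call among the members. With vehicle, 0 of 47 were called and 0% of all genes, with a members' median of -0.05 and a range of -0.45 to 0.32. With tunicamycin 0 of 47 were called, beside 3.99% of all genes (0.762% higher and 3.23% lower), with a median of 0.04 and a range of -0.29 to 0.20. For the interaction, which asks whether the tunicamycin change differs between genotypes, 0 of 47 were called, beside 0.837% of all genes (0.0137% higher and 0.824% lower), with a median of 0.09. In each of these 3 comparisons 0 members had an unadjusted limma p under 0.05, against 4.08%, 15.6% and 8.26% of all genes. The 95% interval lay within a 1.5-fold difference for 37 members with vehicle (78.7%), 43 with tunicamycin (91.5%) and 31 for the interaction (66%), against 49%, 41.2% and 13.9% of all genes.

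With vehicle, the smallest p belonged to Rpl22l1 (-0.39 ± 0.19), Rpl3l (-0.28 ± 0.14), Rpl41 (-0.26 ± 0.14), Rpl27a (0.32 ± 0.17) and Rps9 (-0.31 ± 0.18), each with an adjusted p of 0.988. Null arrays lay above control arrays for 1 member, Rpl27a (2.13%), against 3.76% of all genes. They lay below for 4 (8.51%), Rpl3l, Rpl41, Rpl6 and Rplp2, against 4.41%. Rpl41 gave 13.20, 13.01 and 13.12 on control and 12.59, 12.95 and 12.99 on null vehicle arrays, so the null group was lower on every array, and replicate 1 was the furthest.

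With tunicamycin the first member by p was Rps15, a small subunit protein of the decoding region, with signals of 12.21, 12.17 and 12.26 in control and 12.44, 12.31 and 12.49 in null livers. The null arrays all lay above, at a difference of 0.20 ± 0.13 (adjusted p = 0.508). The others were Rps27 (-0.22 ± 0.15), Rplp0 (-0.29 ± 0.24), Rpl37a (0.14 ± 0.13) and Rpl35 (0.13 ± 0.11), with adjusted p of 0.556 to 0.661. Null arrays lay above for 7 members (14.9%), against 10.3% of all genes, and below for 1, Rplp0 (2.13%), against 11.5%. In the interaction Rps9 and Rpl22l1 were followed by Rps15 (0.27 ± 0.18), Rpl41 (0.27 ± 0.19) and Rpl8 (0.26 ± 0.24), with adjusted p of 0.796 to 0.89.

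Many genes of ribosome assembly rose. Of all genes tested, 11.6% rose and 13.3% fell in control livers, and 7.6% rose and 9.19% fell in null livers. Of 30 tested ribosome biogenesis genes, 22 rose in control and 26 in null livers and 0 fell, with median changes of 0.97 and 1.09. In the fit that included the actin ratio 13 and 17 rose, and without null tunicamycin replicate 3 the null count was 17. Gar1, of the particle that converts uridine to pseudouridine in ribosomal RNA, rose by 2.26 ± 0.22 (adjusted p = 1.97e-05) and 2.28 ± 0.22 (adjusted p = 4.16e-05). Nop58, of the particle that methylates ribosomal RNA, rose by 2.88 ± 0.35 and 2.44 ± 0.35. Gnl3, the nucleolar GTPase nucleostemin, rose by 1.20 ± 0.15 and 1.42 ± 0.15, and Wdr43, of the small subunit processome, by 1.17 ± 0.15 and 1.41 ± 0.15.

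For RNA polymerase I, which transcribes ribosomal RNA, 6 and 7 of 17 tested genes rose and 0 fell, with medians of 0.36 and 0.68. They included the subunits Twistnb (1.98 ± 0.21 and 1.91 ± 0.21) and Polr1e (1.46 ± 0.20 and 1.12 ± 0.20) and the activator Ubtf (0.55 ± 0.12 and 0.74 ± 0.12). Genes of translation initiation were also higher, 13 and 10 of 24 with 0 lower, among them Eif1a (1.71 ± 0.16 and 1.63 ± 0.16) and Eif3c (0.93 ± 0.13 and 0.91 ± 0.13). Without null tunicamycin replicate 3 the null count was 6. Elongation factors and other TOP mRNAs, which share the start sequence of the ribosomal proteins, gave 1 of 17 in each genotype, Hnrnpa1 (0.76 ± 0.24 and 0.96 ± 0.24), with medians of 0.09 and 0.20. The control call was lost without any 1 of the control arrays other than vehicle replicate 2, and the null call without null tunicamycin replicate 3. Those medians stood close to the 0.11 and 0.24 of the ribosomal proteins, and no test was made between the lists.

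The ribosomal proteins of the mitochondrion, which are made from separate genes and serve a separate ribosome, went both ways. Of 76 tested, 4 rose and 16 fell in control livers, where 11.6% and 13.3% of all genes did so. In null livers 4 rose and 9 fell, where 7.6% and 9.19% of all genes did so. The medians were -0.14 each, beside -0.11 and -0.07 over all genes. Mrpl49 fell by 2.77 ± 0.20 on the log2 scale in control and 1.57 ± 0.20 in null livers, while Mrps18b rose by 1.55 ± 0.14 and 1.28 ± 0.14. The balance depended on the scaling. With array medians centred 12 rose and 6 fell in control and 5 rose and 4 fell in null livers, with medians of 0.06 and 0.02, and as deposited 12 rose and 5 fell and 8 rose and 4 fell, with medians of 0.08 and 0.09. In control livers 7 fell without control tunicamycin replicate 2, 9 without control vehicle replicate 2 and 6 in the fit with the actin ratio. In null livers 2 or 3 rose without any 1 array.

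Among regulators of mTORC1 and of TOP mRNA translation, 5 rose and 3 fell of 15 in control livers (11.6% and 13.3% of all genes). In null livers 3 rose and 2 fell (7.6% and 9.19% of all genes). Without null tunicamycin replicate 3 or any 1 of the null vehicle arrays, 1 rose in null livers. Sesn2 and Ddit4, stress-induced inhibitors of mTORC1, rose by 1.57 ± 0.21 and 2.63 ± 0.37 in control and by 2.37 ± 0.21 and 1.35 ± 0.37 in null livers. Eif4ebp1, a repressor of cap-dependent initiation, rose by 0.91 ± 0.17 and 0.59 ± 0.17, and its relative Eif4ebp2 fell by 0.98 ± 0.13 and 0.83 ± 0.13. The translation of ribosomal protein mRNAs was not measured here.

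**Figure D4:**
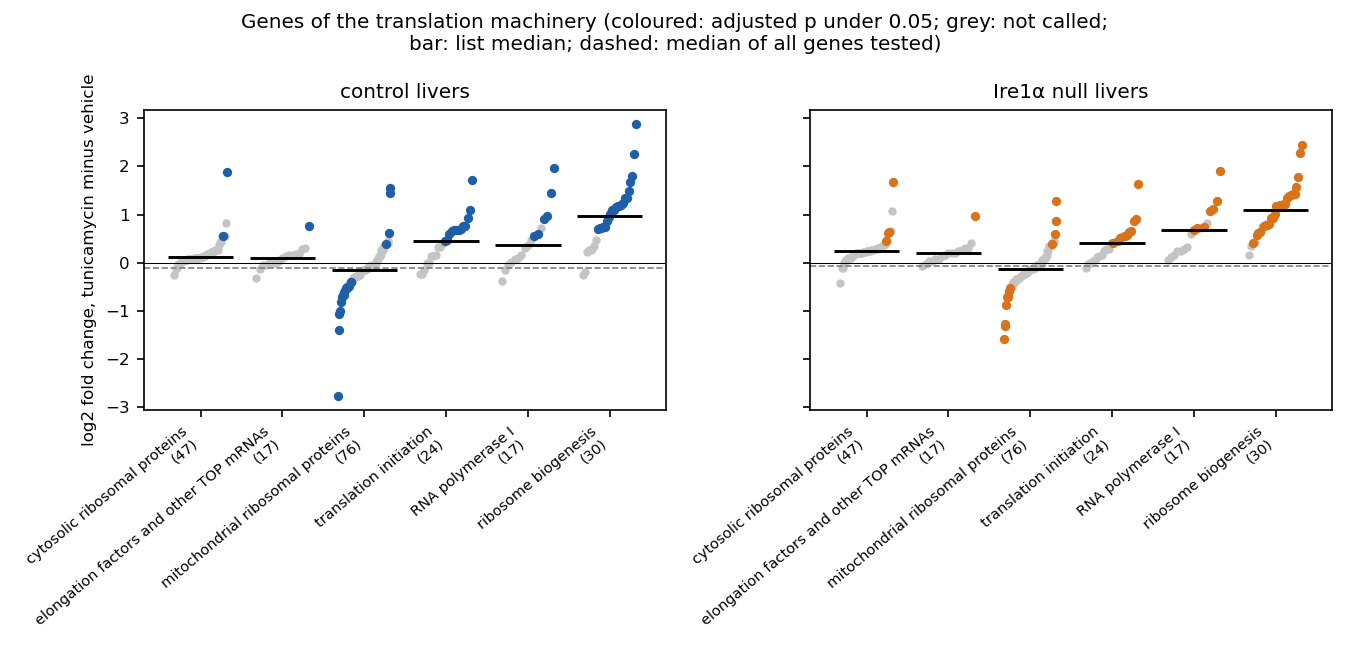
Points are genes, by their log2 fold change with tunicamycin in control (left) and null livers (right), in order of size within each list, with the number tested in brackets. Coloured points passed the adjusted p threshold, bars are list medians and the dashed line is the median of all genes tested. The medians of the cytosolic ribosomal proteins (0.11 and 0.24) and of the other TOP mRNAs (0.09 and 0.20) lie near 0, and those of ribosome biogenesis (0.97 and 1.09) lie highest.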

How the data were processed

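Total RNA was extracted from liver with Trizol and biotin-labelled for Affymetrix arrays, per the labels' protocols. What the authors deposited for each of the 12 arrays is 1 linear intensity per probe set. The sources used here name neither the summary algorithm nor the scaling. Gene symbols came from the platform annotation, and promoter windows from RefSeq.

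After adding 16, log2 intensities were quantile normalized (limma 3.58.1, R 4.3.3, and the data.table package, version 1.17.8). The 30% dimmest probe sets were left out and the brightest probe set of each gene was kept. A mean for each of the 4 groups was fitted by lmFit, and eBayes tested 5 contrasts (8 residual degrees of freedom) with Benjamini-Hochberg adjustment over the 14569 genes tested and a threshold of 0.05. Extra single-symbol probe sets of members were fitted and adjusted with all 34945 of that kind. Probe sets with several symbols were fitted and adjusted with all 45037 probe sets other than controls. "Called" means past that threshold, "rose" and "fell" are used of called genes, and a change is given in log2 units ± its standard error, with 3 arrays a group. On this scale the changes of dim genes are understated. The number of arrays limits the precision. The fit and its calls were tested on simulated data for tunicamycin minus vehicle in control livers. Normalization, the filter on dim probe sets, the choice of probe set and the other contrasts were not tested in this way.

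Members, gene lists and tests were chosen with earlier results of these data known, and the direction of a list is not independent evidence. Genes are named by rule: called members or the 5 with the smallest p in a contrast, paralogs with their partners, up to 3 of each role group, and up to 4 called genes of another list. Rpl13a and the extra probe sets were chosen after their values were seen. Plots were made in Python 3.11.15 (matplotlib 3.10.9). Alternatives changed the pseudocount, the filter on dim probe sets, the scaling, the probe set rule, the fit and the arrays used.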

Additional observations from a re-analysis of the deposited data

How the results depend on the processing

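For genotype with vehicle, genotype with tunicamycin and the interaction, 0 members were called under every alternative run. No alternative gave a member a lower call with tunicamycin in either genotype, and Rpl12 was called in all 26 alternatives in each. The count of 2 in control livers became 4 with a pseudocount of 64, with the 50% dimmest probe sets left out, with centred array medians, with values as deposited and with every probe set on its own (chosen after seeing the data). It became 5 with averaged probe sets or the Gapdh ratio as a covariate, 6 with the trend and robust options, 7 with array weights and 1 with actin as the covariate. Leaving out 1 array gave 2 to 5, the 5 being without null tunicamycin replicate 2, and 4 was reached without null vehicle replicate 1. The count of 4 in null livers became 8 with a pseudocount of 64, with values as deposited and with array weights. It became 10 with the mean of probe sets, 11 with the trend and robust options, 7 without _x_at and _s_at probe sets or with every probe set on its own, and 1 with the actin ratio or when the other groups did not enter the fit. With the trend and robust options the 11 members were a larger share than the highest for all genes under any alternative, 22.1%. The share of all genes with the mean of probe sets is not given here, so the 10 cannot be set beside it. Leaving out 1 array gave 1 to 5 in null livers. With every probe set on its own and null tunicamycin replicate 2 left out (chosen after seeing the data), the counts were 6 and 8. It was 1 without control tunicamycin replicate 2 or 3, null tunicamycin replicate 3 or null vehicle replicate 1. It was 2 without control tunicamycin replicate 1, null tunicamycin replicate 1 or 2, control vehicle replicate 2 or null vehicle replicate 3. The cause was not tested.

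In null livers Rps9, Rpsa and Rpl22l1 missed the threshold in 11, 12 and 16 of 26 alternatives, and in control livers Rpsa in 1. Rps6 in control livers turned to -0.069 (adjusted p = 0.797) when its probe sets were averaged, and ranged up to 0.65. The members' median ranged from 0.04 to 0.27 in control and from 0.20 to 0.39 in null livers. The share of all genes called ranged from 13% to 32% and from 8.61% to 22.1%, and without 1 array from 17.7% to 27.9% and from 11% to 16.6%. The counts of biogenesis genes higher ranged from 13 to 23 and from 17 to 26, those of the elongation and other TOP genes from 0 to 2 and from 0 to 4, and those of translation initiation from 9 to 15 and from 6 to 12. A pseudocount of 1 and no filter on dim probe sets were also tried.

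The titles number replicates 1 to 3 in every group. With the replicate number as a block, 3 members were called in control livers (Rpl12, Rps19bp1 and Rpsa) and 1 in null livers (Rpl12), beside 23.1% and 14.7% of all genes. Deviations of same-numbered arrays correlated above 0.1 in 5 of 18 pairs (median -0.0479, highest 0.49). Those of other arrays did so in 7 of 36 (median -0.0121, highest 0.366). Deviations from means of 3 arrays depend on each other, so these values cannot decide whether the numbers pair the arrays.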
